A study of Mus musculus with 8 samples.

Results

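The complement and coagulation systems were followed in the mouse kidney through 48 genes, listed by their known function, with earlier results of these data known: complement components, receptors and regulators, coagulation factors, anticoagulants, and genes of fibrinolysis and protease inhibition, without the fibrinogen chains. All 48 were among the 15948 genes of the deposited table. Messenger RNA had been sequenced from 8 kidney samples, 3 labelled Arhgef11Sglt2 DOCA and 5 labelled Sglt2Cre DOCA. The study's title names a proximal tubule specific knockout of Arhgef11, which encodes a guanine nucleotide exchange factor for the small GTPase RhoA. Sglt2 (gene Slc5a2) is the sodium-glucose cotransporter of the early proximal tubule and gives its name to the Cre in both groups, and both carry the label DOCA, in this field deoxycorticosterone acetate, a mineralocorticoid used to raise blood pressure. Kidneys without Cre or without DOCA were not analysed here, so every difference below is between 2 groups that share both. The sources used here give no strain, sex, age, dose or duration and do not say whether each sample is a separate animal. The p-values therefore cover only the sample-to-sample spread, which may be in part technical.

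Complement is a cascade of plasma proteases and their targets that starts from antibodies (C1q, C1r, C1s), from sugars (the lectin pathway with its MASP proteases) or from spontaneous turnover of C3 (the alternative pathway with factors B and D), and all routes meet at the cleavage of C3. Cell-bound and soluble regulators hold it in check. Coagulation starts from tissue factor and ends in fibrin, which plasmin dissolves again after plasminogen has been cut by the tissue or the urokinase activator. Most of these proteins in plasma come from the liver, but tubule cells, endothelium and macrophages of the kidney make several of them locally.

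Levels are given as normalized counts, obtained by inverting the authors' variance-stabilizing log2 transformation, and folds are ratios of group means of these counts. Differences and standard errors (SE) are on the deposited log2 scale, which compresses genes with low counts, and always run Arhgef11Sglt2 minus Sglt2Cre. Normalized counts summed to 43039280 to 46676184 per library. Read depth, estimated from the spacing of the lowest values, was 51300000 to 58200000 in the Arhgef11Sglt2 libraries and 33000000 to 59400000 in the Sglt2Cre libraries. Arhgef11 itself had 2935, 3919 and 3905 normalized counts in Arhgef11Sglt2 replicates 1, 2 and 3, against 3479 to 3928 in the Sglt2Cre libraries (log2 difference -0.04, SE 0.09, limma adjusted p = 0.834; two-sided exact permutation p = 0.732). Whole-kidney RNA therefore did not check the labels, and each direction below is that of the libraries as labelled. In limma, with Benjamini-Hochberg adjustment over all genes, 354 of 15948 genes (2.22%) passed an adjusted p of 0.05, 100 higher (0.627%) and 254 lower (1.59%). Scaling each library to the same total gave 149 higher and 178 lower.

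Of the 48 complement and coagulation genes, 3 (6.25%) passed this threshold and all were higher in Arhgef11Sglt2 kidneys, against 2.22% of all genes in either direction and 0.627% higher. They were C2, a protease of the classical and lectin pathways, F2rl1, a protease-activated receptor, and Plat, the tissue plasminogen activator, at 1.34-fold, 1.61-fold and 1.52-fold the Sglt2Cre mean. None was lower. The largest differences in either direction lay in genes that did not pass, C3 with a log2 difference of 1.59 and Serpinf2, which encodes alpha2-antiplasmin, with -1.01. Over the 48 genes the median log2 difference was 0.02, with 26 positive and 22 negative, beside -0.01 over all genes. At an unadjusted p under 0.05, 10 genes (20.8%) were higher and 4 (8.33%) lower, against 9.04% and 12.1% of all genes (21.1% in either direction). In 7 of the 48 (14.6%) the 2 groups of libraries did not overlap, which was close to the 14.3% of all genes. Of these, 6 were higher and 1 lower, against 6.2% higher and 8.14% lower of all genes.

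These 3 calls depended on single libraries. The number of the 48 genes past the threshold was 6, 5 and 0 without Arhgef11Sglt2 replicate 1, 2 and 3, and 1, 0, 0, 0 and 0 without Sglt2Cre replicates 1 to 5. The size of the 3 differences moved less. Leaving out each library in turn gave log2 differences of 0.30 to 0.41 for C2, 0.47 to 0.64 for F2rl1 and 0.39 to 0.57 for Plat.

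**Figure D1:**
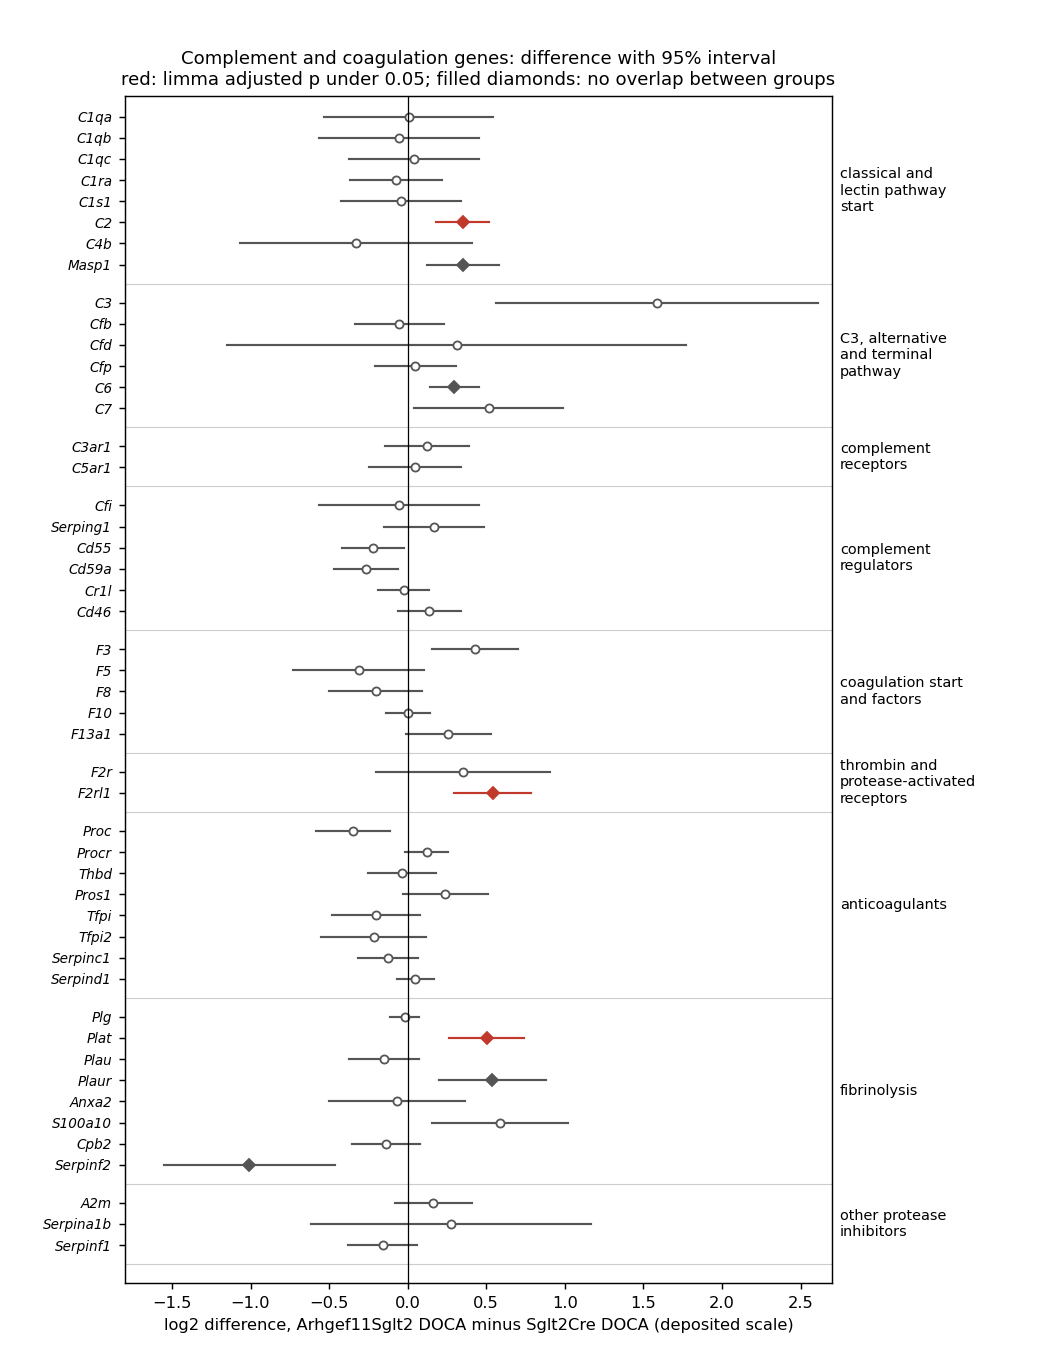
Log2 difference (Arhgef11Sglt2 DOCA minus Sglt2Cre DOCA, deposited scale, x axis) of each of the 48 genes, with its 95% interval from limma, ordered by role. C2, F2rl1 and Plat, in red, passed an adjusted p of 0.05, filled diamonds mark the 7 genes whose libraries did not overlap between groups, and C3 and Serpinf2 lie farthest to the right and the left.

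Genes that start the classical and lectin pathways were divided: 4 of 8 had a positive and 4 a negative difference, and 1 passed. C2 encodes the protease that joins C4b to form the C3-cleaving enzyme of both pathways. It had 2476, 2806 and 2945 normalized counts in Arhgef11Sglt2 replicates 1 to 3, against 1795, 2181, 2023, 2107 and 2108 in Sglt2Cre replicates 1 to 5. Every Arhgef11Sglt2 library lay above every Sglt2Cre library. The means were 2742 ± 241 and 2043 ± 149 (SD, n = 3 and 5), a log2 difference of 0.35 (SE 0.08, limma adjusted p = 0.0486). The numbers in the library names fall in 2 ranges, which the labels do not call batches, the first with Arhgef11Sglt2 replicates 1 and 2 and Sglt2Cre replicates 1 to 3, the second with Arhgef11Sglt2 replicate 3 and Sglt2Cre replicates 4 and 5. The difference of C2 was 0.33 within the first number range and 0.40 within the second.

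Masp1 encodes a protease that activates the lectin pathway on sugar-bearing surfaces. Its normalized counts were 289.8, 444 and 431 in Arhgef11Sglt2 libraries, against 280.4, 141, 230.2, 264 and 232 in Sglt2Cre libraries. The groups did not overlap, although Arhgef11Sglt2 replicate 1 lay just above Sglt2Cre replicate 1. The fold was 1.69 and the log2 difference 0.35 (SE 0.10, limma adjusted p = 0.102). Over the libraries left out the log2 difference was 0.29 to 0.45. The adjusted p was 0.0361 without Arhgef11Sglt2 replicate 1, and 0.125 to 0.332 without any 1 of the other libraries.

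C4b, the substrate that C1s and MASP-2 cut, pointed the other way with wide spread: 3349, 2598 and 1190.4 normalized counts in Arhgef11Sglt2 replicates 1 to 3, against 2093, 1523, 3476, 4317 and 4139 in Sglt2Cre replicates 1 to 5. Arhgef11Sglt2 replicate 3 was the lowest library and the other 2 lay inside the Sglt2Cre range. The log2 difference of -0.33 (SE 0.33, limma adjusted p = 0.608) was 0.02 without that replicate. It was 0.33 within the first number range and -1.49 within the second. The near-identical copy C4a shares reads with C4b, so the split between them is uncertain. The sum of both was 3396, 2629 and 1209 in Arhgef11Sglt2 libraries and 2151, 1552, 3506, 4399.5 and 4153 in Sglt2Cre libraries.

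The 3 chains of C1q, the antibody-sensing molecule that starts the classical pathway, spread widely among the Arhgef11Sglt2 libraries and did not pass the threshold. C1qa had 3596, 1851 and 1073 normalized counts in Arhgef11Sglt2 replicates 1, 2 and 3, against 1673 to 2152 in the Sglt2Cre libraries. Replicate 1 lay above all 5 Sglt2Cre libraries and replicate 3 below all of them. C1qb (3631, 1885 and 1192 against 1999 to 2530.2) and C1qc (2633, 1561 and 1018 against 1456 to 1760.1) had the same order of libraries in the Arhgef11Sglt2 group. The log2 differences were 0.01, -0.05 and 0.04, with limma adjusted p of 0.993, 0.919 and 0.931. C1q in the kidney comes mainly from macrophages. The 8 macrophage markers, all measured and none past the threshold, summed to 13818, 9728 and 6201 normalized counts in Arhgef11Sglt2 replicates 1, 2 and 3 and to 8388 to 11289 in the Sglt2Cre libraries, in the same order as C1q within the Arhgef11Sglt2 group. Their part in the C1q values was not tested, and in whole tissue fewer cells of a type and less RNA per cell cannot be told apart. The C1q chains and the macrophage sums were looked at together after their values were seen. This order was not particular to macrophage markers. The fibroblast and pericyte sum had it too (45049, 28674 and 14436), as did the liver cell, platelet and thick ascending limb sums. Of the macrophage markers, Adgre1, Cx3cr1, Mrc1, Mpeg1 and Tyrobp followed it, whereas Cd68, Cd14 and Csf1r did not.

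C1ra and C1s1, the proteases attached to C1q, had log2 differences of -0.07 and -0.04 with overlapping groups (limma adjusted p of 0.787 and 0.917). Their libraries ran from 1258 to 2008 and from 1636 to 2461 normalized counts in Arhgef11Sglt2 kidneys, against 1408 to 2068 and 1562 to 2808 in Sglt2Cre kidneys.

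At the centre of the cascade, C3 transcripts were 3.48-fold higher in the mean of the Arhgef11Sglt2 kidneys but did not pass the threshold. C3 had 57686, 34447 and 12252 normalized counts in Arhgef11Sglt2 replicates 1, 2 and 3, against 6302, 16866, 11411, 9355 and 6129 in Sglt2Cre replicates 1 to 5. Replicates 1 and 2 stood above every Sglt2Cre library, whereas replicate 3 lay below Sglt2Cre replicate 2. The means were 34795 ± 22719 and 10012 ± 4422 (SD, n = 3 and 5), a log2 difference of 1.59 (SE 0.46, 95% interval 0.56 to 2.61, limma adjusted p = 0.0986; two-sided exact permutation p = 0.0357 over 56 assignments of the libraries, of which the smallest possible is 0.0179). Leaving out single libraries gave log2 differences of 1.1 to 2.19. The difference of C3 was 2.00 within the first number range and 0.65 within the second. The tubule injury markers Havcr1, Lcn2, Krt20, Vcam1 and Sox9 summed to 33509, 12167 and 12190.0 normalized counts in Arhgef11Sglt2 replicates 1, 2 and 3. In the Sglt2Cre libraries the sum was 5255 to 9137. Of the 5 markers, 2 passed the threshold, Lcn2 and Krt20, both higher. The groups were apart for these 2 and for Sox9, and overlapped for Havcr1 and Vcam1. In Arhgef11Sglt2 replicate 3 Vcam1 (1103) lay below all Sglt2Cre libraries (1868 to 2666). The part of these markers in the C3 difference was not tested.

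The 250 bases before the C3 start site are shown because C3 had the largest difference of the 48 genes. They come from RefSeq on GRCm38.p6 (chr17:57228137-57228386, minus strand), an older build than the GRCm39 named in the submitters' processing notes. Capitals mark matches, on either strand, to any of 6 motifs: AP-1 (TGANTCA), STAT (TTCNNNGAA), C/EBP (TTGCNNAA), the TATA box (TATAAA), and those of NF-kB and HNF1.
C3: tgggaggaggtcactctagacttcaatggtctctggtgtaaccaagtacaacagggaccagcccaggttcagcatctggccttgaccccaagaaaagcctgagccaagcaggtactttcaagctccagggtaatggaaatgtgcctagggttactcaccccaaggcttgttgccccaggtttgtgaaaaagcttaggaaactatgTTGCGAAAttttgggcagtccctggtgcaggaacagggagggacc
The window held 1 match, to the C/EBP motif, at 45 to 38 bases before the start. That motif was in 9.56% of the 32851 promoter windows of the same length. A match is a description of the letters and not evidence of binding.

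Among the other genes of the alternative and terminal pathway, C6 and C7, both parts of the membrane attack complex, were higher in the mean. C6 had 159, 149 and 99.8 normalized counts in Arhgef11Sglt2 replicates 1 to 3, against 78.3, 43.7, 76.5, 66.5 and 58.1 in Sglt2Cre replicates 1 to 5. The groups did not overlap. The difference of 0.30 (SE 0.07) corresponded to 2.10-fold, and the limma adjusted p was 0.0565. C7 had 1292, 1931 and 1499.9 normalized counts, against 1343, 509, 1146, 1317 and 671. Sglt2Cre replicates 2 and 5 were low, and Sglt2Cre replicates 1 and 4 lay above Arhgef11Sglt2 replicate 1 (log2 difference 0.52, SE 0.21, limma adjusted p = 0.203). Factor B (Cfb), the protease of the alternative pathway, had 12574 to 18802 normalized counts in Arhgef11Sglt2 libraries and 14231 to 17656 in Sglt2Cre libraries, a log2 difference of -0.05 with a 95% interval from -0.34 to 0.23. Properdin (Cfp), which stabilizes the enzyme made with factor B, was highest in Arhgef11Sglt2 replicate 1 (339.5 normalized counts, with the other 7 libraries at 124 to 219.8; limma adjusted p = 0.847).

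Factor D (Cfd), the protease that cuts factor B and a major product of fat cells, split the libraries regardless of group. It was listed at 244, 751 and 0 normalized counts in Arhgef11Sglt2 replicates 1, 2 and 3, and at 491, 985, 0, 0 and 0 in Sglt2Cre replicates 1 to 5. Adipoq, which encodes the fat cell hormone adiponectin, was listed at 57.7, 175 and 0 in the same Arhgef11Sglt2 libraries and at 125, 382, 0, 0 and 0 in the Sglt2Cre libraries. Both genes were thus above 0 in the same 4 libraries, with the same order of levels. These 4 libraries were all in the first number range, where only Sglt2Cre replicate 3 was listed at 0. Every library of the second range was listed at 0. The fat cell genes Plin1 and Cidec were also highest in Sglt2Cre replicate 2 (333 and 332 normalized counts), although in Arhgef11Sglt2 replicate 3 they were at 24.1 and 66.9 where Cfd and Adipoq were listed at 0. Lep and Fabp4, the rest of the list, were highest in Sglt2Cre replicate 2 too (58.4 and 4816). Within the Arhgef11Sglt2 group Fabp4 did not follow Cfd, at 2815, 3038 and 3152 in replicates 1, 2 and 3. The fat cell markers were added after the Cfd values were seen, none of the 5 passed the threshold, and their part in the Cfd values was not tested. The sum of the 5, mostly Fabp4, was 2949 to 3386 in Arhgef11Sglt2 libraries and 2371 to 5922 in Sglt2Cre libraries. A listed 0 in an estimated abundance can be a failed estimate.

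**Figure D2:**
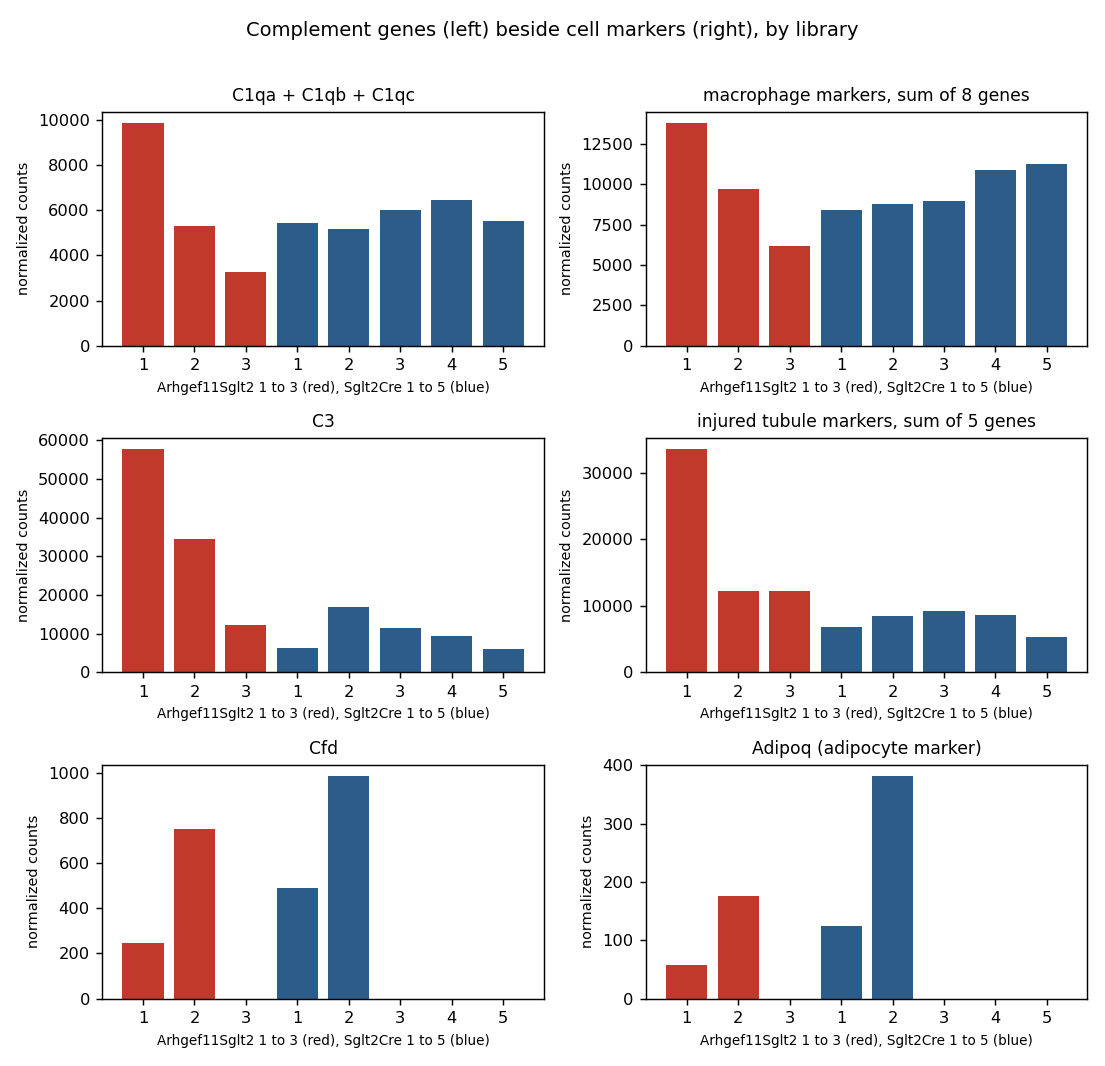
Normalized counts (y axis) in each library (x axis; Arhgef11Sglt2 DOCA 1 to 3 in red, Sglt2Cre DOCA 1 to 5 in blue) for complement genes on the left and cell markers on the right. C1q and the macrophage sum are both highest in Arhgef11Sglt2 library 1 and lowest in library 3, C3 and the injured tubule sum are highest in Arhgef11Sglt2 library 1, and Cfd and Adipoq are above 0 in the same 4 libraries.

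The receptors for the small complement fragments, C3ar1 and C5ar1, which act on myeloid cells, did not pass. C3ar1 had 629, 455 and 293 normalized counts in Arhgef11Sglt2 replicates 1 to 3, against 321, 454, 332, 391 and 403 in Sglt2Cre replicates 1 to 5 (log2 difference 0.12, SE 0.12, limma adjusted p = 0.595). C5ar1 had 282, 127 and 92.0, against 182, 100.1, 144, 202 and 103 (log2 difference 0.04, SE 0.13, limma adjusted p = 0.881). Both were highest in Arhgef11Sglt2 replicate 1 and lowest in replicate 3. C1q and the sums of macrophage and of fibroblast and pericyte markers had the same order. Without Arhgef11Sglt2 replicate 1 the differences of C3ar1 and C5ar1 turned negative, at -0.02 and -0.12.

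Of the 6 complement regulators, 4 had a negative difference and none passed. Cd59a, a surface protein that blocks the membrane attack complex, had 1474, 1765 and 1482 normalized counts in Arhgef11Sglt2 libraries, against 2196, 2288, 1873, 1741 and 1869 in Sglt2Cre libraries. Cd55, which breaks up the C3-cleaving enzymes on cell surfaces, had 354, 340.4 and 309, against 323, 495, 494, 433 and 534. For each gene 1 library kept the groups from separating: Arhgef11Sglt2 replicate 2 for Cd59a, which lay above Sglt2Cre replicate 4, and Sglt2Cre replicate 1 for Cd55, which lay below 2 of the Arhgef11Sglt2 libraries. Cd59a was 1.27-fold lower (log2 difference -0.26, SE 0.09) and Cd55 1.36-fold lower (-0.22, SE 0.09), with limma adjusted p of 0.141 and 0.188. Cd59a has the close copy Cd59b, so its counts are uncertain. Cd59b was listed at 83.0, 71.9 and 59.4 in Arhgef11Sglt2 replicates 1 to 3 and at 80.1 to 140 in Sglt2Cre libraries (limma adjusted p = 0.207).

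Cd46, another surface regulator, had 175, 229.6 and 351 normalized counts in Arhgef11Sglt2 replicates 1 to 3, against 176, 193, 195, 181 and 225 in the Sglt2Cre libraries (log2 difference 0.14, SE 0.09, limma adjusted p = 0.408). Its higher mean rested on replicate 3, and without it the difference was 0.02. Cr1l, which encodes Crry, the main membrane regulator of C3 in rodents, was among the steadiest of these genes, at 2159 to 2654 normalized counts in Arhgef11Sglt2 libraries and 2308 to 2620.4 in Sglt2Cre libraries (95% interval of the log2 difference -0.19 to 0.14). Serping1, the inhibitor of C1r and C1s, had a log2 difference of 0.17 and Cfi, the protease that inactivates C3b and C4b, one of -0.06 (limma adjusted p of 0.541 and 0.917). Cfi ran from 2603 in Arhgef11Sglt2 replicate 1 to 840.5 in replicate 3, both outside the Sglt2Cre range of 1361 to 2006.

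**Figure D3:**
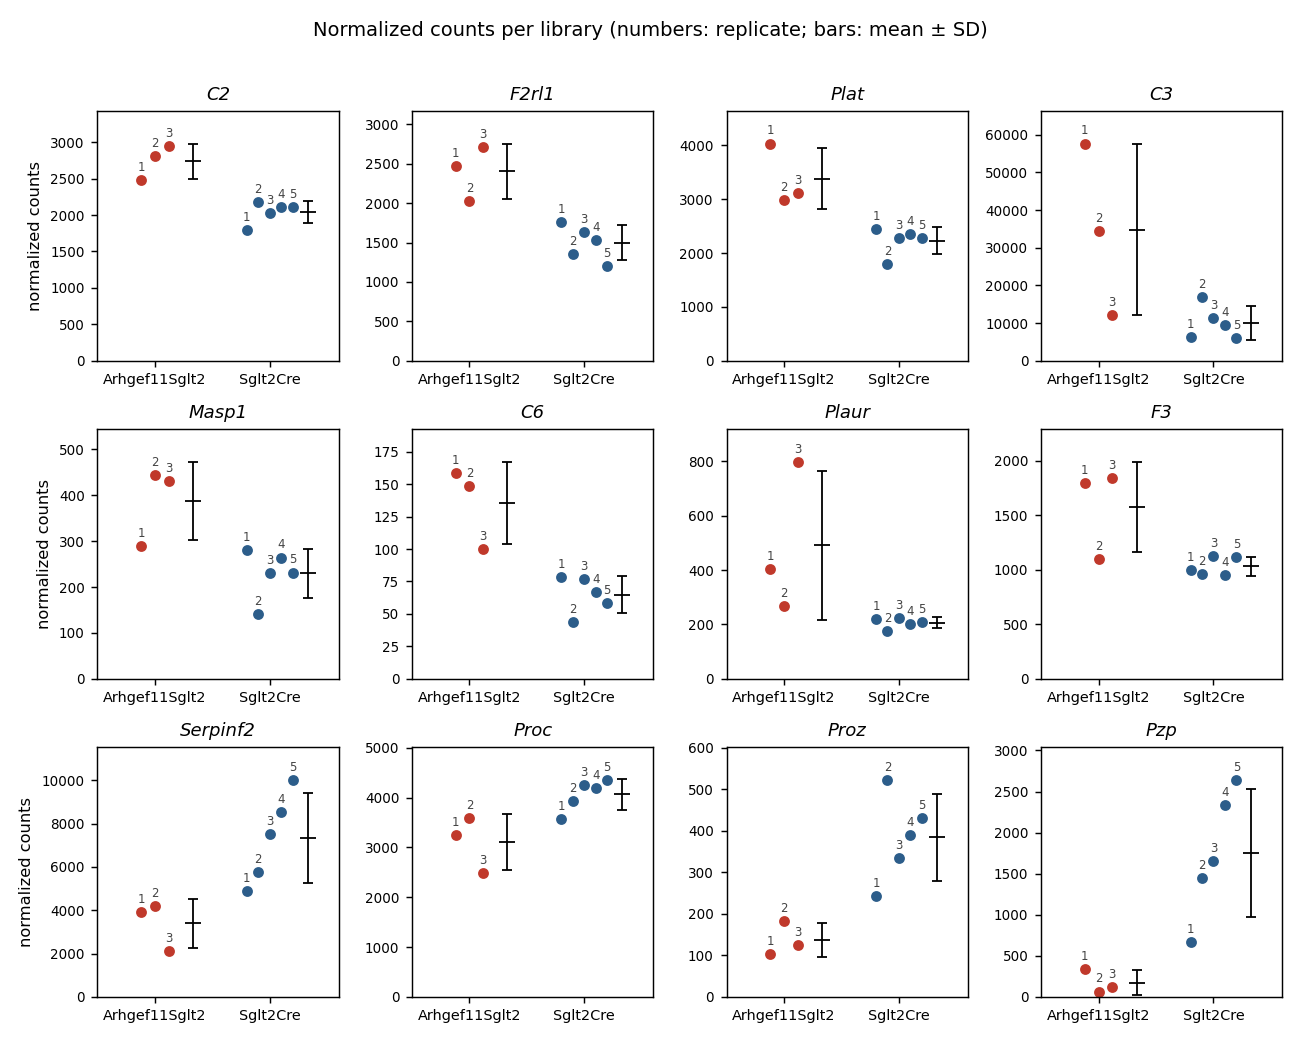
Normalized counts (y axis, from 0) in each library for 10 of the 48 genes and for Proz and Pzp, with Arhgef11Sglt2 DOCA (red, n = 3) left of Sglt2Cre DOCA (blue, n = 5), the replicate number above each point and the mean ± SD beside each group. The groups are apart for C2, F2rl1, Plat, Masp1, C6, Plaur, Serpinf2, Proz and Pzp, and overlap for C3, F3 and Proc.

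Tissue factor (F3), the membrane protein that starts coagulation, was 1.53-fold higher in the mean. It had 1796, 1101 and 1839 normalized counts in Arhgef11Sglt2 replicates 1, 2 and 3, against 1001, 962, 1123, 949 and 1119 in Sglt2Cre replicates 1 to 5. Replicates 1 and 3 stood apart from all other libraries, whereas replicate 2 lay within the Sglt2Cre range. The log2 difference was 0.43 (SE 0.12, limma adjusted p = 0.0945), and leaving out each library in turn gave 0.33 to 0.61. The adjusted p was 0.0113 without Arhgef11Sglt2 replicate 2, and 0.128 to 0.332 without any 1 of the other libraries.

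The other coagulation factors did not pass. F5, the cofactor of factor Xa, had 319, 523 and 415 normalized counts in Arhgef11Sglt2 libraries, against 491, 325, 587, 828 and 968 in Sglt2Cre libraries, and the groups overlapped (log2 difference -0.31, SE 0.19, limma adjusted p = 0.37). F13a1, the A subunit of the factor that cross-links fibrin and a product of macrophages and megakaryocytes, had 206, 84.3 and 52.6, against 64.3, 39.3, 69.6, 62.8 and 26.2. Arhgef11Sglt2 replicate 1 gave most of its 2.18-fold difference, which was 1.31-fold without it (log2 difference 0.26, SE 0.12, limma adjusted p = 0.257). F8, the cofactor of factor IXa, had a log2 difference of -0.20, and F10, at 25.4 to 58.9 normalized counts in Arhgef11Sglt2 libraries and 24.0 to 46.6 in Sglt2Cre libraries, one of 0.0024 (limma adjusted p of 0.41 and 0.988).

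Of the receptors that coagulation proteases cut, F2rl1 was higher. F2rl1 encodes protease-activated receptor 2, which trypsin-like proteases and the tissue factor complexes activate. It had 2476, 2025 and 2717 normalized counts in Arhgef11Sglt2 replicates 1 to 3, against 1764, 1358, 1631, 1535 and 1202 in Sglt2Cre replicates 1 to 5. All 3 Arhgef11Sglt2 libraries lay above all 5 Sglt2Cre libraries. The means were 2406 ± 351 and 1498 ± 222 (SD, n = 3 and 5), a log2 difference of 0.54 (SE 0.11, limma adjusted p = 0.0425). The difference was 0.40 within the first number range and 0.79 within the second.

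F2r, the thrombin receptor, had 8114, 9249 and 6629 normalized counts, against 7002, 3119, 7001, 8062 and 6652. The groups overlapped, and Sglt2Cre replicate 2 lay far below the other libraries (log2 difference 0.35, SE 0.25, limma adjusted p = 0.446). The direction was positive within the first number range (0.64) and negative within the second (-0.13). Whether the differences of F2r and F2rl1 are unequal was not tested.

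Genes that restrain coagulation showed no common direction, with 3 of 8 positive and 5 negative and none past the threshold. Proc encodes protein C, which inactivates factors Va and VIIIa once thrombin bound to thrombomodulin has activated it. It had 3248, 3582 and 2479.6 normalized counts in Arhgef11Sglt2 replicates 1 to 3, against 3579, 3927, 4261, 4195 and 4361 in Sglt2Cre replicates 1 to 5. Only Arhgef11Sglt2 replicate 2 reached the Sglt2Cre range, where it lay just above Sglt2Cre replicate 1. Proc was 1.31-fold lower in the mean (log2 difference -0.35, SE 0.11, limma adjusted p = 0.107; two-sided exact permutation p = 0.0357).

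Pros1, the cofactor of activated protein C, had 2991, 3003 and 2345 normalized counts, against 2544, 1779, 2191, 2767 and 2152. Procr, its endothelial receptor, had 104, 122 and 139, against 85.1, 82.0, 125, 80.0 and 86.1. Both were higher in the mean (1.22-fold and 1.33-fold) with overlapping groups, and Sglt2Cre replicate 3 was set apart from the other 4 for Procr. The log2 differences were 0.24 (SE 0.12) and 0.12 (SE 0.06), with limma adjusted p of 0.29 and 0.292. Thrombomodulin (Thbd) had 1599 to 1699 normalized counts in Arhgef11Sglt2 libraries and 1356 to 2000.1 in Sglt2Cre libraries (log2 difference -0.04). The tissue factor pathway inhibitors Tfpi and Tfpi2 had differences of -0.20 and -0.21, and the thrombin inhibitors antithrombin (Serpinc1) and heparin cofactor II (Serpind1), both low (at most 106 and 23.1 normalized counts in Arhgef11Sglt2 libraries and 123 and 18.2 in Sglt2Cre libraries), -0.12 and 0.05. For these 5 genes the limma adjusted p ran from 0.383 to 0.872.

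Of the 8 genes of fibrinolysis, 3 had a positive and 5 a negative difference, and 1 passed. That was Plat, which encodes the tissue plasminogen activator. It had 4037, 2989 and 3125 normalized counts in Arhgef11Sglt2 replicates 1 to 3, against 2449.7, 1798, 2277, 2347 and 2279.8 in Sglt2Cre replicates 1 to 5. The groups did not overlap. Plat averaged 3384 ± 569.6 and 2230.2 ± 252 (SD, n = 3 and 5), a log2 difference of 0.50 (SE 0.11, limma adjusted p = 0.0474), and with libraries scaled to equal totals the adjusted p was 0.0512. Urokinase (Plau), the other activator, had 17262 to 20811 normalized counts in Arhgef11Sglt2 libraries and 18479 to 22316 in Sglt2Cre libraries, with a log2 difference of -0.15 (95% interval -0.37 to 0.07, limma adjusted p = 0.413). Plasminogen (Plg), their substrate, was near absent from the tissue RNA, at 1.69 to 3.56 normalized counts in Arhgef11Sglt2 libraries and 1.93 to 4.5 in Sglt2Cre libraries.

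Plaur, the receptor that holds urokinase on cells, was 2.39-fold higher in the mean. Its normalized counts were 404, 269 and 799 in Arhgef11Sglt2 replicates 1, 2 and 3, against 221, 174, 224, 199.9 and 209.5 in Sglt2Cre replicates 1 to 5. The Sglt2Cre libraries were tightly grouped and every Arhgef11Sglt2 library lay above them, replicate 3 by the widest margin. The log2 difference of 0.54 (SE 0.15) had a limma adjusted p of 0.0948. Leaving out single libraries gave log2 differences of 0.30 to 0.73, with an adjusted p of 0.0295 without Arhgef11Sglt2 replicate 2 and of 0.0747 to 0.188 without any 1 of the others. Without Arhgef11Sglt2 replicate 3 the fold was 1.64 and the log2 difference 0.30.

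The upstream windows of F3 and Plaur are shown as 2 of the 8 genes with an AP-1 match, chosen after the matches and the differences were seen. The window of C6, which is not printed, held none of the 6 motifs. F3 is at chr3:121723287-121723536, plus strand, and Plaur at chr7:24462233-24462482, plus strand (RefSeq, GRCm38.p6), with capitals as for C3.
F3: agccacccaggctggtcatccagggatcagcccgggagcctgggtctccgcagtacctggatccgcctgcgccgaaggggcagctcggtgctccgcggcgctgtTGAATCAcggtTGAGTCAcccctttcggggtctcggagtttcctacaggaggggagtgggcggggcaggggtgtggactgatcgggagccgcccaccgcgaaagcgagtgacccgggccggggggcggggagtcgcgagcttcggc
Plaur: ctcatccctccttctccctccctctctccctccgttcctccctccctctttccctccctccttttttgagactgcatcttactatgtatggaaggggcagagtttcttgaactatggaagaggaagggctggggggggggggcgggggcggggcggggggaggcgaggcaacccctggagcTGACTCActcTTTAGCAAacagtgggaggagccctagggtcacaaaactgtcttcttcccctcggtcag
F3 held 2 AP-1 matches, at 146 to 140 and 135 to 129 bases before the start. Plaur held 1 AP-1 match at 69 to 63 bases and a C/EBP match on the opposite strand at 59 to 52 bases. Of the 33 genes among the 48 that had a window in the table, 8 (24.2%) held an AP-1 match in any of their windows, beside 7.82% of all 27025 genes with a window. The 8 were Anxa2, C3ar1, F2r, F3, Plaur, Procr, Serpina1b and Tfpi2, which include positive and negative differences. C2, F2rl1 and Plat, the genes past the threshold, had no window, so none of the 8 could be among them.

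Serpinf2 encodes alpha2-antiplasmin, the fast inhibitor of plasmin. It was 2.16-fold lower in the mean, with 3917, 4181 and 2113 normalized counts in Arhgef11Sglt2 replicates 1, 2 and 3, against 4888, 5758, 7535, 8524 and 10036 in Sglt2Cre replicates 1 to 5. No library overlapped, and both groups were wide. The means were 3404 ± 1126 and 7348 ± 2075 (SD, n = 3 and 5), a log2 difference of -1.01 (SE 0.24, 95% interval -1.55 to -0.46). The limma adjusted p was 0.0637. With single libraries left out the log2 difference was -1.16 to -0.74, and the adjusted p was 0.0457 without Arhgef11Sglt2 replicate 1 and 0.0582 to 0.225 without any 1 of the others. The difference was -0.51 within the first number range and -1.89 within the second. Markers of the last proximal tubule segment (Slc7a13, Slc22a30, Acy3, Mep1b and Slc22a7, 4 of 5 past the threshold and lower) summed to 16478 to 23565 normalized counts in Arhgef11Sglt2 libraries and to 33093 to 84779 in Sglt2Cre libraries. Those of the early proximal tubule (2 of 5 past the threshold and lower) summed to 185100 to 286465 and to 324204 to 363963. In both sums, as for Serpinf2, all Arhgef11Sglt2 libraries were below all Sglt2Cre libraries. Singly, this held for Slc7a13, Slc22a30, Acy3, Mep1b, Lrp2 and Slc34a1. The groups overlapped for Slc22a7, which had a positive difference (0.05), and for the early markers Slc5a2, Slc5a12 and Slc22a6. Slc5a12 in Arhgef11Sglt2 replicate 2 (24377) lay above every Sglt2Cre library (at most 16606). The part of these markers in the Serpinf2 difference was not tested.

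The Serpinf2 window is given as that of the gene with the largest negative difference (chr11:75439502-75439751, minus strand, RefSeq, GRCm38.p6). It held no match to the 6 motifs, which says only that these letters are not in this window.
Serpinf2: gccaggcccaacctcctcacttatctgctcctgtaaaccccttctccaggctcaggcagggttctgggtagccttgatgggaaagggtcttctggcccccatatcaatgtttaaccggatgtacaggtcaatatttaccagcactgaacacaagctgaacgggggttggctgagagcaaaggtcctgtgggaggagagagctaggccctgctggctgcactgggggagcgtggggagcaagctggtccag

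The plasminogen-binding pair Anxa2 and S100a10, whose proteins form a complex on the cell surface, is given although only chosen after the values were seen. S100a10 had 7265, 3234 and 5003 normalized counts in Arhgef11Sglt2 libraries, against 2993, 3405, 3462, 3169.6 and 2558 in Sglt2Cre libraries (log2 difference 0.59, limma adjusted p = 0.132). Anxa2 had 5441, 2336 and 2919, against 3697, 3196, 3432, 3737 and 3730.3 (log2 difference -0.07, limma adjusted p = 0.874). Both were highest in Arhgef11Sglt2 replicate 1, while in replicates 2 and 3 Anxa2 lay below all Sglt2Cre libraries. Without replicate 1 Anxa2 passed the threshold and was lower. Cpb2, the carboxypeptidase that protects fibrin, had 13.5 to 32.8 normalized counts in Arhgef11Sglt2 libraries and 20.4 to 99.7 in Sglt2Cre libraries (limma adjusted p = 0.439).

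The 3 remaining protease inhibitors overlapped between the groups. A2m, a broad trap for proteases, had 109.6, 83.3 and 24.5 normalized counts in Arhgef11Sglt2 replicates 1 to 3, against 26.3, 17, 46.4, 62.8 and 50.8 in Sglt2Cre replicates 1 to 5 (log2 difference 0.16, SE 0.11, limma adjusted p = 0.421). Serpinf1, a serpin with no known protease target, had 158, 74.3 and 55.1, against 169.9, 126, 123, 148 and 95.7 (-0.16, SE 0.10, limma adjusted p = 0.385). Serpina1b, a mouse copy of alpha1-antitrypsin, had 2049, 315 and 327, against 522, 1158, 393, 293 and 298 (0.28, SE 0.40, limma adjusted p = 0.736). For Serpina1b, Arhgef11Sglt2 replicate 1 and Sglt2Cre replicate 2 stood far above the rest, and without the first the difference turned to -0.30. Its near-identical copies share reads, and the 4 measured copies together summed to 13015, 2963 and 2989.7 in Arhgef11Sglt2 libraries and to 7896, 5045, 5420.3, 5355 and 5292 in Sglt2Cre libraries.

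Markers of liver cells bear on the plasma protein genes above. Of 6 listed, 5 were measured and none passed. Alb had 119 to 160 normalized counts in Arhgef11Sglt2 libraries and 149 to 373 in Sglt2Cre libraries, and Apoa1 15.3 to 23.2 and 5.49 to 18.4. The log2 difference was negative for Alb (-0.40), Ttr (-0.34), Apoh (-0.28) and Apoa2 (-0.05), and positive for Apoa1 (0.08). The sum of the 5 was 2352 to 5138 in Arhgef11Sglt2 libraries and 2838 to 6564.5 in Sglt2Cre libraries. Of the 6 platelet and megakaryocyte markers, 3 were measured, none passed, and their sum was 170.0 to 226 in Arhgef11Sglt2 libraries and 212 to 343 in Sglt2Cre libraries. The 7 endothelial markers summed to 15634 to 19787 and to 11839 to 22655, with none past the threshold. Fibroblast and pericyte markers summed to 14436 to 45049 and to 27965 to 34993, and neutrophil markers, 1 of 5 past the threshold and higher, to 392.4 to 632.9 and to 179.9 to 402. Of the thick ascending limb markers 1 of 4 passed and was lower, and none of the 4 collecting duct or the 4 podocyte markers passed. No marker of any list was at 0 in every library.

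Library by library, the 48 genes varied more within the Arhgef11Sglt2 group. The median SD on the log2 scale was 0.230 among its 3 libraries and 0.138 among the 5 Sglt2Cre libraries, and 34 of the 48 genes (70.8%) had the larger SD in the Arhgef11Sglt2 group. Over all genes the medians were 0.119 and 0.0946, and the share was 60.8%. Arhgef11Sglt2 replicate 1 was the highest of the 8 libraries for 16 of the 48 genes (33.3%, beside 14.0% of all genes). Arhgef11Sglt2 replicate 3 was the lowest for 19 (39.6%, beside 26.0%), and Sglt2Cre replicate 2 for 14 (29.2%, beside 17.2%). Genes that are high in the same cell type share these counts, so they are not independent of each other.

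**Figure D4:**
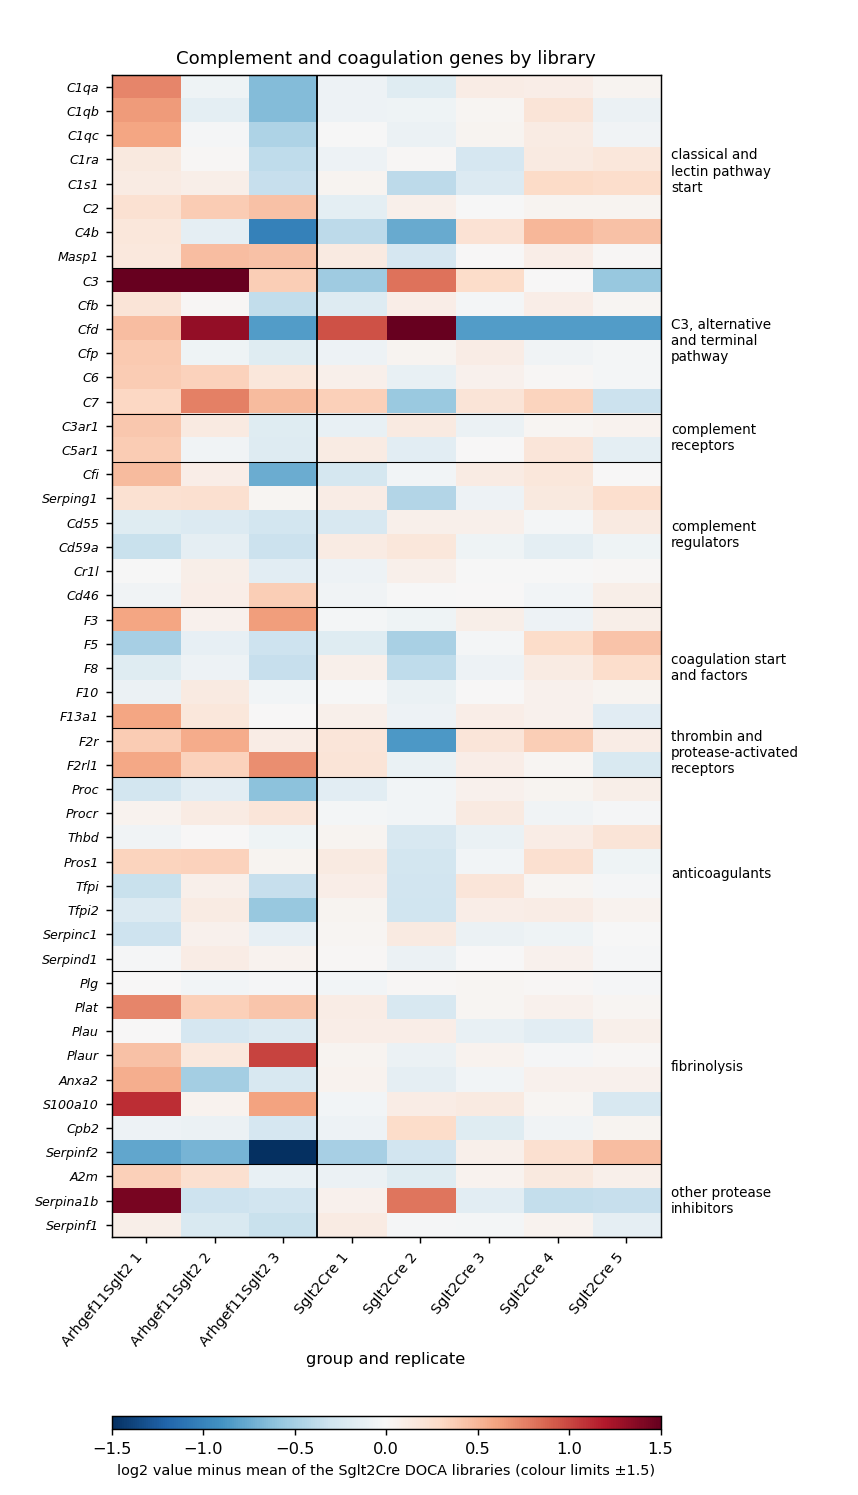
Log2 value of each of the 48 genes (rows, by role) in each library (columns, Arhgef11Sglt2 DOCA left of Sglt2Cre DOCA), as the difference from the mean of the Sglt2Cre DOCA libraries, with colours limited at 1.5 in both directions. C1q, C3, Cfi, S100a10 and Serpina1b are highest in Arhgef11Sglt2 library 1, and Arhgef11Sglt2 library 3 is lowest for C1q, C4b, Cfi and Serpinf2.

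Beyond these 48 genes, 74 others of the complement, coagulation and fibrinolysis systems were listed, of which 53 were in the table. In limma 2 of them (3.77%, beside 2.22% of all genes) passed, both lower: Proz and Pzp. Proz encodes protein Z, the cofactor with which the serpin encoded by Serpina10 inhibits factor Xa. It had 103, 182 and 125 normalized counts in Arhgef11Sglt2 replicates 1 to 3, against 242, 523, 335, 389 and 429 in Sglt2Cre replicates 1 to 5. The groups were apart, and Proz was 2.81-fold lower (log2 difference -0.61, SE 0.12, limma adjusted p = 0.037). Serpina10 spread widely within the Arhgef11Sglt2 group, at 4337, 1446 and 477, against 673 to 1418 (limma adjusted p = 0.511). Pzp, an inhibitor of the alpha-macroglobulin family to which A2m belongs, had 341, 64.5 and 117, against 672, 1444, 1654, 2334 and 2645 (log2 difference -1.90, SE 0.30, limma adjusted p = 0.02). Pzp was 10.1-fold lower, and 19.3-fold without Arhgef11Sglt2 replicate 1, its highest library in that group. Both calls were lost without Arhgef11Sglt2 replicate 3 (adjusted p of 0.131 for Proz and 0.0841 for Pzp) and without Sglt2Cre replicate 4 (0.0929 and 0.0589). That of Proz was also lost without Sglt2Cre replicate 3 (0.0665) or 5 (0.0866).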

How the data were processed

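The deposited table held log2 values of 15948 genes in 8 libraries, on the scale of a variance-stabilizing transformation, with the same minimum of 8.12753 in every library. Salmon 1.10.0, DESeq2 and GRCm39 are named in the submitters' processing notes, and stranded poly(A) libraries sequenced as 1 pool per the labels' protocols. Gene symbols were matched for 15902 of 15948 identifiers. Normalized counts were obtained by inverting the transformation from its minimum. Whole reads could not be recovered (per library, 29.1% to 56.9% of the values worth up to 5 reads came within 0.02 of a whole read), so no count model was used.

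The log2 values as deposited were compared with limma 3.58.1 in R 4.3.3 (lmFit, eBayes with trend, group as the only term, 6 residual degrees of freedom, no filter on low values), two-sided, with Benjamini-Hochberg adjustment over all 15948 genes and a threshold of 0.05. The fit was tested on simulated data, where the share of false calls came out above the nominal threshold. Exact permutation tests ran over the 56 assignments of libraries to groups, for the genes given with full values and without adjustment for their number. The permutation p was 0.0179, the smallest possible, for C2, F2rl1, Plat, Masp1, C6, Plaur, Proz and Pzp. It was 0.0357 for C3, Proc and Serpinf2, and 0.0536 (F3) or more for the others. Genes named for a small limma p were preselected, so these values are not independent support. Alternatives were another scaling, filter and pseudocount, no trend, sample weights, library number range, replicate block and each library left out.

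The 48 genes and all lists were chosen with earlier results of these data known. Full values were given for genes past the threshold, for genes without overlap between groups and for the 3 with the smallest p in each role. The C1q chains, Cfd, Anxa2 and S100a10 were added after their values were seen.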

Additional observations from a re-analysis of the deposited data

Results flagged for a closer look

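In 5 cases among the 51 genes checked, 1 of the 5 Sglt2Cre libraries stood apart from the other 4, by a gap wider than Dixon's 95% critical value of 0.71 of the group's range. Chance gives about 1 in 20. Sglt2Cre replicate 2 was the low library for F2r (3119 normalized counts), Tfpi2 (536) and Plat (1798), and the high one for Serpina1b (1158). Sglt2Cre replicate 3 was the high library for Procr (125). Without Sglt2Cre replicate 2 the log2 difference of Plat was 0.44, with a limma adjusted p of 0.0588.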

How the results depend on the processing

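With the replicate number as a block no gene passed the threshold, giving 0 genes in all, 0 of the 48 and 0 of the other pathway genes. Samples with the same number did not deviate together (correlations of -0.18, -0.09 and -0.01). These values cannot exclude pairing, because the deviations are taken from the means of small groups. The block leaves fewer than the 6 residual degrees of freedom of the main fit, and Sglt2Cre replicates 4 and 5 are unmatched. Its lack of calls therefore says little. With sample weights 874 genes passed, 5 of the 48 (C2, C3, C6, Masp1 and Plat) and 4 of the other pathway genes, and the difference of Arhgef11 was 0.027. At an adjusted p of 0.1 the counts were 1038, 8 and 5. Leaving out each library gave 24 to 1334 genes, 0 to 6 of the 48 and 0 to 6 of the other pathway genes, and -0.10 to 0.079 for Arhgef11, positive without Arhgef11Sglt2 replicate 1. C2 and F2rl1 passed with equal totals and with the library number range as a term, and Plat did not (adjusted p of 0.0512 and 0.0565). The sign turned for C4b without Arhgef11Sglt2 replicate 3 (-0.58 to 0.016 over the libraries left out), for C3ar1 (-0.019 to 0.27), C5ar1 (-0.12 to 0.16) and Serpina1b (-0.30 to 0.57) without Arhgef11Sglt2 replicate 1, and for C5ar1 with sample weights (-0.054). The cause was not tested. Of 429 values of single genes under an alternative, 385 kept their direction and side of the threshold, 32 lost and 7 gained the call. Most of the 429 belonged to genes that had no call to lose. Only C2, F2rl1, Plat, Proz and Pzp had one, and all 32 losses were theirs. Values near 0 normalized counts are compressed on the deposited scale, which limits what could be detected for Plg, F10 and Serpind1.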

Other observations

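Among the 53 other pathway genes measured, 7 (13.2%, beside 14.3% of all genes) had groups that did not overlap. Apart from Proz and Pzp none of these passed the threshold, and they are named after their values were seen. Serpina3n, an acute-phase serpin, had 1143, 701 and 318 normalized counts in Arhgef11Sglt2 replicates 1 to 3, against 143 to 302 in the Sglt2Cre libraries (limma adjusted p = 0.0759). Serpinb6a, an intracellular serpin, had 1979.5 to 2612 in Arhgef11Sglt2 libraries, against 1414 to 1868 in Sglt2Cre libraries (limma adjusted p = 0.0627). Lower were Lman1, the cargo receptor for factors V and VIII, with 4671 to 5755 against 6239.7 to 6856 (limma adjusted p = 0.0777), Colec11, a lectin that binds MASP proteases, with 19.2 to 61.0 against 67.9 to 128, and Hrg, histidine-rich glycoprotein, with 15.6 to 21.3 against 34.7 to 197.

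Of the 33 genes with an upstream window in the RefSeq table, 5 (15.2%) held a C/EBP match, 4 (12.1%) a TATA box match, 2 (6.06%) a STAT match and none an NF-kB or HNF1 match. Over all genes with a window the shares were 10.8%, 14.3%, 8.13%, 0.414% and 0.44%. These are counts of letters and were not tested.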
